A study of Mus musculus with 401 samples.

Results

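Autophagy is the process by which a cell encloses part of its cytoplasm in a double membrane, the autophagosome, and delivers it to lysosomes for degradation. It is started by the ULK1 kinase complex, which is held back by the nutrient sensor mTORC1 and activated by the energy sensor AMPK, and it is carried on by a lipid kinase complex around Beclin 1 and VPS34, by lipid transfer through ATG2, ATG9 and WIPI proteins, and by conjugation enzymes that attach proteins of the ATG8 family (LC3 and GABARAP) to the growing membrane. Receptors such as p62 carry cargo to these ATG8 proteins, and the transcription factors TFEB and TFE3 induce genes of autophagy and of lysosomes. In the ovary, autophagy is known for its part in the survival of oocytes in primordial follicles.

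The 38 genes described here were a list of named mouse genes of this pathway, and the rule for them uses no measured value, though the list was drawn up with earlier results of these data known. All 38 were found by symbol among the 43633 gene identifiers of the count tables, and all 38 were present in both tables. By role they comprised 5 genes of the ULK1 complex (Ulk1, Ulk2, Atg13, Atg101, Rb1cc1), 6 of the lipid kinase complex and its partners (Becn1, Pik3c3, Pik3r4, Atg14, Uvrag, Ambra1), 5 of lipid transfer (Atg2a, Atg2b, Atg9a, Wipi1, Wipi2), 10 of conjugation and ATG8 processing (Atg3, Atg4a, Atg4b, Atg4c, Atg4d, Atg5, Atg7, Atg10, Atg12, Atg16l1), 5 of the ATG8 family (Map1lc3a, Map1lc3b, Gabarap, Gabarapl1, Gabarapl2), 3 cargo receptors (Sqstm1, which encodes p62, Nbr1 and Optn), the transcription factor genes Tfeb and Tfe3, and the lysosomal membrane genes Lamp1 and Lamp2.

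Single oocytes from fully grown follicles, and the pool of cumulus cells that surrounded each of them, were profiled by RamDA-seq, a method that sequences total RNA along the full length of transcripts. All animals were female B6D2F1 mice. In the first set, Young mice (2 months), Middle mice (9 months) and Old mice (14 months) were fed ad libitum, and CR mice (9 months) were under calorie restriction, begun in steps in adult life and kept at 40% up to that age. These 4 groups gave 16, 14, 16 and 27 oocyte libraries and 15, 15, 16 and 25 cumulus libraries (in the order Young, Middle, Old, CR) from 2, 4, 2 and 3 mouse labels, and 1 of the Old labels joins animals. In the second set, mice fed ad libitum at 2, 4, 9 and 14 months (2mo, 4mo, 9mo, 14mo) gave 24, 39, 16 and 16 oocyte libraries and 24, 40, 16 and 16 cumulus libraries from 5, 8, 4 and 5 mouse labels, and 2-month mice that were not treated for hyperovulation (2moNoH) gave 32 of each from 8 labels. All other groups had been injected for hyperovulation. The complexes of one mouse share an animal, so a test over libraries treats as independent what is in part 1 animal, and calls over libraries are therefore set beside calls with counts summed per mouse. A library of pooled cumulus cells cannot tell fewer cells of a type from less RNA per cell.

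Of the first set, 1 complex of Middle mouse 3 was left out, because its oocyte library correlated with the mean of cumulus cells (r = 0.912) more than with that of oocytes (r = 0.681). In the remaining libraries, summed oocyte markers had medians of 17445 to 22317 CPM (counts scaled to the total of the library) in the 9 groups of oocytes and of 10.9 to 24.7 CPM in the groups of cumulus cells. Summed cumulus markers in oocytes were 3.14% to 3.93% of their level in cumulus cells in all groups of oocytes except Old, with 6.51%. The markers differed, and those with the highest share in 2mo oocytes, 3 of the 12, were Serpine2, Nr5a2 and Kitl, whose medians there were 25.7%, 9.66% and 12.4% of those in cumulus cells. The other 9 had medians of 0% to 0.437% of their cumulus level in 2mo oocytes, 0.347% to 2.96% in Young, 0.782% to 2.24% in Middle, 0.302% to 4.11% in CR and 1.32% to 16.1% in Old oocytes. CR libraries held more counts, with a median of 3578882 counts per oocyte beside 2332126 in Middle, and of 2019007 counts per cumulus pool beside 1091806, and the ranges of the groups did not overlap. Mitochondrial genes took a median of 0.961% of counts in CR oocytes, 0.666% in Middle, 0.988% in Old and 0.561% in Young oocytes, and their part in the results below was not tested. The 38 genes together took a median of 0.322% to 0.366% of the counts of oocyte libraries in the 9 groups, and of 0.208% to 0.281% in cumulus cells.

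TFEB and TFE3 are known to bind short palindromes around the hexamer CACGTG in promoters of lysosomal and autophagy genes. Promoter sequences from RefSeq (GRCm38.p6, 250 bases before the start to 50 after it) were found for 32 of the 38 genes. The hexamer CACGTG, which reads the same on both strands, was present in 5 of these 32 (15.6%) and in 2187 of 27025 genes with a promoter in the table (8.09%). Its longer form TCACGTGA, each match of which is also a match of the hexamer, was present in 1 of the 32 (3.12%), Atg3, and in 1.12% of all genes. The matches are shown because both transcription factor genes are among those described and because Lamp1 and Atg3 recur in the results. Each sequence is written 5′ to 3′ on the strand of its gene, with the hexamer in capitals.
Lamp1 (chr8:13159088-13159117, + strand, hexamer from base -61): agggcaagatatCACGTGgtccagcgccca
Lamp1 (chr8:13159134-13159163, + strand, hexamer from base -15): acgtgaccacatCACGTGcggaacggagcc
Atg3 (chr16:45158746-45158775, + strand, hexamer from base -71): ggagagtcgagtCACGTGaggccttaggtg
Atg5 (chr10:44268313-44268342, + strand, hexamer from base -14): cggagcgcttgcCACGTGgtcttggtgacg
Atg7 (chr6:114670952-114670981, + strand, hexamer from base -132): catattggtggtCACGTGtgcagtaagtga
Atg14 (chr14:47568418-47568447, - strand, hexamer from base -1): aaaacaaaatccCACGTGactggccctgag
Lamp1 held 4 such hexamers in its window, those shown and those from bases -45 and -28, and Atg3 held another from base -94. Bases are counted from the start of a RefSeq promoter, of which a gene can have more than 1 (32851 promoters for 27025 genes). The windows of Atg7 and Atg14 lay inside the gene and not at its outer start. These genes span chr6:114643097-114860614 and chr14:47540893-47570649. A match is a description of these letters and not a bound site.

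Oocytes and cumulus cells of the same complexes held the autophagy genes at different levels. In 2mo complexes 35 of 38 genes differed between the cell types at an adjusted p under 0.05 (edgeR's quasi-likelihood test with Benjamini-Hochberg adjustment over all genes tested, the rule for every call below), 21 higher in oocytes and 14 higher in cumulus cells. Of all 26662 genes tested, 88.4% differed, so such a share is the rule between these cell types. Summing counts per mouse, 34 of the 38 genes were called, 21 higher in oocytes and 13 in cumulus cells, beside 84.8% of all genes, and Atg2b was no longer called (adjusted p = 0.201 by edgeR). The libraries of the cell types did not overlap for 55.3% of the 38 genes, 14 higher in oocytes and 7 higher in cumulus cells. Over all genes tested this held for 32.3%, with 19.1% higher in oocytes and 13.2% higher in cumulus cells. The sizes depend on scaling: without TMM normalization (scaling factors that discount highly expressed genes) the median change of all genes moved from 0.16 to 0.48 on the log2 scale, and 18 genes were higher in oocytes and 16 in cumulus cells.

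The genes that were higher in oocytes included all 5 of the lipid kinase complex that passed the test. On the RPKM scale (reads scaled to gene length and library total, recalculated from counts and gene lengths, which allows levels of different genes to be compared), Pik3r4, the regulatory subunit that anchors VPS34, ranged from 39.02 to 60.9 in 2mo oocytes with a median of 48.4, and from 3.96 to 7.62 in cumulus cells with a median of 5.55. The log2 difference of cumulus cells from oocytes was -3.47 ± 0.06 (SE). Atg14, which directs the complex to autophagosome formation, had a median of 56.4 RPKM in oocytes and 10.4 in cumulus cells (log2 difference -2.80 ± 0.10), and Ambra1, Uvrag and Pik3c3, the gene of VPS34 itself, had differences of -2.04, -1.92 and -0.79 on the same scale. Becn1, the Beclin 1 gene, did not pass the test, with -0.03 ± 0.08 and an adjusted p of 0.742 by edgeR.

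Of the conjugation genes, Atg5, whose product is joined to ATG12 and then acts with ATG16L1, was the highest of the 38 genes in 2mo oocytes, with 126 to 185 RPKM and a median of 169. In cumulus cells it ranged from 8.66 to 27.6 with a median of 17.5, and the difference of -3.54 ± 0.08 on the log2 scale was the largest in favour of oocytes. Atg12 had medians of 108 RPKM in oocytes and 62.4 in cumulus cells, and Atg16l1 of 20.3 and 4.14. Atg3 and Atg7, the enzymes that activate and transfer ATG8 proteins, were low in both, at medians of 2.42 and 3.57 RPKM in oocytes and 2.84 and 3.40 in cumulus cells. The ATG4 proteases divided by paralog: Atg4b was higher in oocytes (13.3 beside 8.34 RPKM), Atg4c and Atg4d were higher in cumulus cells, and Atg4a did not pass the test. Atg4d was near 0 in oocytes, with a median of 0.0597 RPKM and 11 of 24 libraries at 0 beside a median of 3.49 in cumulus cells.

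The ATG8 family differed in its makeup. The 5 genes summed to 33.8 ± 4.00 RPKM (SD, n = 24) in 2mo oocytes and to 82.9 ± 14.99 RPKM (n = 24) in cumulus cells. Map1lc3a accounted for 51.7% ± 5.82 (SD, as for the other shares) of that sum in oocytes and for 12.9% ± 4.68 in cumulus cells, whereas Gabarap and Gabarapl1 made up 35.1% ± 6.11 and 30.0% ± 8.25 in cumulus cells and 14.1% ± 4.201 and 0.773% ± 0.793 in oocytes. Gabarapl1 had the largest difference in favour of cumulus cells of the genes detected in both, 6.08 ± 0.23 on the log2 scale, with a median of 22.6 RPKM in cumulus cells and of 0.227 in oocytes, where 9 of 24 libraries were at 0. Its mean level in oocytes was 1.01% of that in cumulus cells. In the first set the Map1lc3a share in oocytes was 58.6% ± 7.50 in Young (n = 16), 52.1% ± 5.83 in Middle (n = 14), 43.4% ± 9.18 in Old (n = 16) and 52.1% ± 7.11 in CR (n = 27), whereas in the other groups of the second set it lay between 51.0% ± 5.27 at 14mo (n = 16) and 51.99% ± 6.43 at 4mo (n = 39). Differences in this share between groups were not tested. Gabarapl2 was called higher in oocytes by 0.25 on the log2 scale (-0.25 ± 0.10 for cumulus cells minus oocytes), and this direction turned to 0.09 without TMM, so no order is read from it. The counts of Map1lc3b and Gabarapl2 are the most uncertain of the family. Of their nonzero counts 98.6% in the first set were not whole, and 98.8% and 97.25% in the second. Other genes share this limit in part. Of those called in CR oocytes below, the share in the first set was 45.2% to 54.8% for Atg9a, Atg4a, Optn, Uvrag and Atg2a. It was at most 6.16% for the others called there.

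Of the receptors, Sqstm1 was the highest of the 38 genes in cumulus cells, at 97.98 to 169 RPKM with a median of 123, beside 14.5 to 23.9 in oocytes with a median of 18.3 (log2 difference 2.49 ± 0.07). Nbr1 and Optn were higher in oocytes, with log2 differences of -1.28 and -0.56 for cumulus cells minus oocytes. Lamp1, an abundant glycoprotein of the lysosomal membrane, was higher in oocytes (median 117 beside 39.3 RPKM), while Lamp2, its relative that takes part in the fusion of autophagosomes and lysosomes, was higher in cumulus cells (21.1 beside 1.77 RPKM). The transcription factor genes also divided. Tfe3 had a median of 25.2 RPKM in oocytes and 2.89 in cumulus cells (log2 difference -3.39 ± 0.09). No count of Tfeb was found in 24 oocyte libraries of 51470016 counts in all, and 31 counts were found in 24 cumulus libraries of 20497374, so its CPM in cumulus cells was at least 25.9-fold that allowed in oocytes by 3 counts over the group. This bound covers counting error only, and 7 of the 24 cumulus libraries also had no count of Tfeb. The other groups of oocytes did hold counts of Tfeb, from 1 to 8 in all. The smallest gap was in the Old group, with 8 counts in 16 oocyte libraries (0.226 CPM over the group) beside 11 in 16 cumulus libraries (0.534 CPM), and 4mo had 8 counts in 39 oocyte libraries (0.0998 CPM) beside 46 in 40 cumulus libraries (1.34 CPM).

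**Figure D1:**
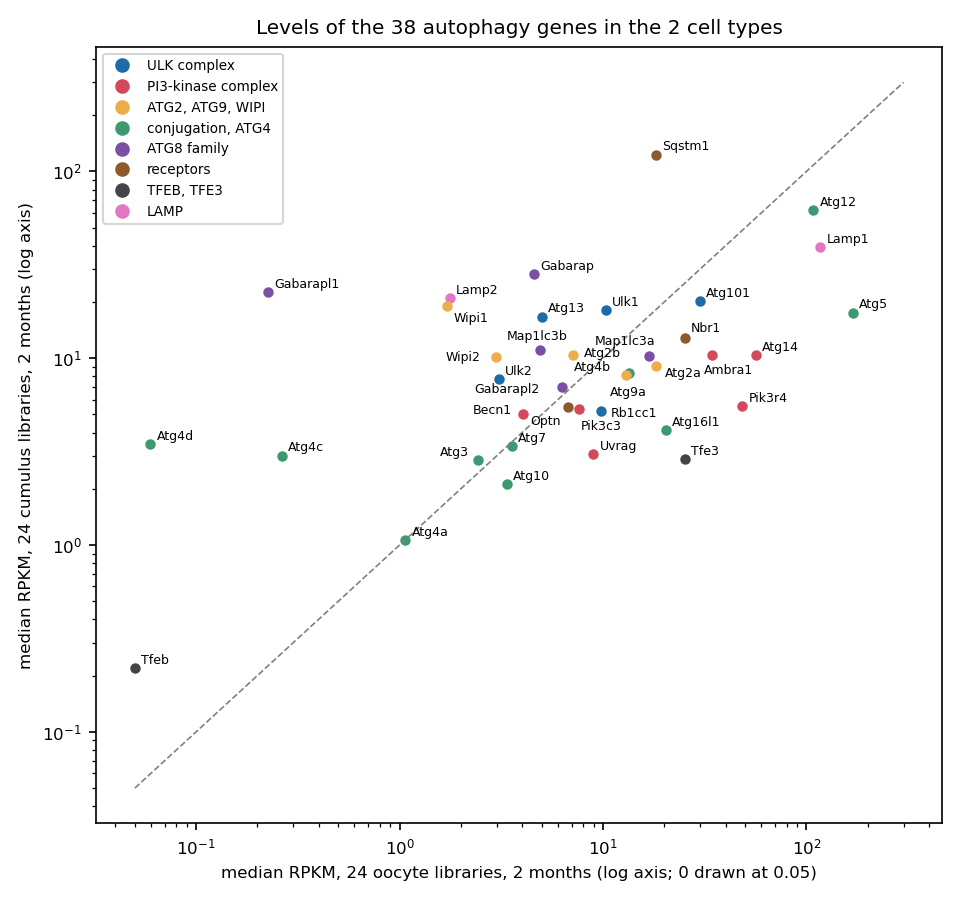
Median RPKM of each of the 38 genes in 24 oocyte libraries (x axis, log scale) and in 24 cumulus libraries (y axis, log scale) of 2mo mice, coloured by role, with the line of equal levels dashed and a level of 0 drawn at 0.05. Atg5, Pik3r4, Atg14 and Tfe3 lie far below the line, and Gabarapl1, Atg4d, Lamp2, Wipi1 and Sqstm1 far above it.

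On the RPKM scale, which uses no TMM factors, the order of the cell types was the same in each of the 9 groups of complexes for most of the genes. The median RPKM was higher in oocytes in each group for 17 genes and higher in cumulus cells in each group for 14. Gabarapl2, called higher in oocytes with TMM scaling, was among these 14, with medians of 6.9997 RPKM in cumulus cells and 6.28 in oocytes at 2mo, and so was Atg3, which did not pass the test at 2mo. For the other 7 (Atg10, Atg101, Atg4a, Becn1, Optn, Tfeb and Ulk1) the order differed between groups, or both medians were 0. Of the wider pathway at 2mo, 16 of 25 genes of lysosomal enzymes and membranes were higher in cumulus cells and 6 in oocytes (88% called, beside 88.4% of all genes), with a median log2 difference of 1.64 beside 0.16 over all genes tested. The further receptors were higher in cumulus cells at 5 of 17 genes and in oocytes at 11 (median -0.78), genes of fusion at 5 and 8 of 14 (median -0.94), upstream regulators at 6 and 10 of 18 (median -0.45) and the further machinery at 5 and 5 of 11 (median 0.10).

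Calorie restriction was compared with ad libitum feeding at the same age, 9 months. In oocytes, 13 of the 37 genes tested changed, 6 higher and 7 lower in CR (35.1%), beside 30.0% of all 25276 genes tested, a share near the background. Their median change was 0.02 on the log2 scale, beside 0.00 over all genes. In the ULK1 complex and in the lipid kinase complex genes were called in both directions. Tfeb was not tested, since it had a count in 4 libraries only, 3 in CR and 1 in Middle. With counts summed per mouse, 2 of the 13 passed the test, Optn and Pik3c3, beside 2151 of all 25276 genes.

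Optn encodes optineurin, a receptor that links ubiquitinated cargo and damaged mitochondria to ATG8 proteins, and lies at chr2:5020642-5064051 on the minus strand (GRCm38). It ranged from 8.85 to 35.7 CPM in Middle oocytes with a median of 17.5, and from 18.9 to 48.2 CPM in CR oocytes with a median of 30.1. The libraries overlapped, but the means of the mice did not, at 15.1, 20.8, 19.4 and 15.7 CPM in the Middle mice and 28.7, 35.6 and 29.2 CPM in the CR mice. The increase was 1.76-fold (log2 0.82 ± 0.12, adjusted p = 7.44e-07 by edgeR), and 0.88 with counts summed per mouse (adjusted p = 0.00986 by edgeR). On the RPKM scale its median of 7.72 in CR oocytes stood above those of Young (5.49), Middle (4.74) and Old oocytes (6.43). An exon of Optn overlaps one of 4930551O13Rik on the opposite strand, and the library kit does not mark strand, so reads of the pair cannot be told apart. The same holds for Uvrag (with Gm45187), Atg14 (Gm49004), Becn1 (Cntd1), Rb1cc1 (4732440D04Rik), Atg2b (Gskip), Atg4d (Kri1), Map1lc3b (Zcchc14), Gabarapl1 (1700101I11Rik), Sqstm1 (Mrnip) and Lamp1 (Grtp1).

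Pik3c3 encodes VPS34, the lipid kinase that marks the membrane where the autophagosome forms. It ranged from 21.3 to 39.8 CPM (median 34.6) in Middle oocytes and from 34.6 to 57.9 CPM (median 48.0) in CR oocytes, with mouse means of 33.0, 34.9, 36.98 and 30.3 CPM in Middle and 41.5, 48.3 and 47.3 CPM in CR. Again libraries overlapped and mouse means did not, and the increase was 1.41-fold (log2 0.50 ± 0.07, adjusted p = 1.10e-07 by edgeR; 0.50 with an adjusted p of 0.0345 with counts summed per mouse). Uvrag, a partner of VPS34 in a complex distinct from that of ATG14, rose 1.28-fold (log2 0.36 ± 0.07, adjusted p = 5.25e-05 by edgeR), from a median of 74.6 to 96.0 CPM. Atg14 moved the other way, from a median of 173.1 CPM in Middle to 153.4 CPM in CR (log2 -0.19 ± 0.06, adjusted p = 0.0234 by edgeR). Becn1, Pik3r4 and Ambra1 did not pass the test, with log2 changes of 0.24 ± 0.10, 0.15 ± 0.10 and -0.13 ± 0.11.

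The largest decreases called were those of lipid transfer genes. Atg2a, which encodes a bridge-like protein that moves lipids from the endoplasmic reticulum to the growing membrane, ranged from 38.98 to 177 CPM in Middle oocytes (median 141) and from 23.2 to 115 CPM in CR oocytes (median 79.7). It fell by 0.76 ± 0.15 on the log2 scale (adjusted p = 0.000118 by edgeR). Mouse means were 167, 124, 74.0 and 138 CPM in Middle and 64.7, 83.5 and 78.6 CPM in CR, so Middle mouse 3, with 1 library, lay among the CR mice and the groups overlapped. Atg9a, the gene of a scramblase carried by vesicles that seed the membrane, had medians of 91.7 and 57.4 CPM and fell by 0.59 ± 0.09 on the log2 scale (adjusted p = 8.94e-07 by edgeR). Its mouse means were 106, 74.0, 65.6 and 94.0 CPM in Middle, each above those of 54.4, 53.9 and 60.1 CPM in CR. With counts summed per mouse the adjusted p by edgeR was 0.0831 for Atg2a and 0.0658 for Atg9a. Exons of Atg9a overlap those of Ankzf1 on the opposite strand. The paralog Atg2b did not pass the test, with 0.08 ± 0.13, nor did Wipi1 and Wipi2, with 0.01 ± 0.20 and 0.15 ± 0.10.

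In the ULK1 complex, Atg13, the adaptor that mTORC1 phosphorylates, fell by 0.51 ± 0.11 on the log2 scale (adjusted p = 0.000502 by edgeR). Its mouse means were 20.9, 23.2, 22.2 and 21.3 CPM in Middle and 13.4, 14.9 and 16.6 CPM in CR, without overlap. Atg101, which stabilizes ATG13, rose by 0.25 ± 0.09 (adjusted p = 0.0252 by edgeR), with mouse means that overlapped. The kinase genes Ulk1 and Ulk2 and the scaffold gene Rb1cc1 did not pass the test, with 0.07 ± 0.15, 0.18 ± 0.14 and 0.09 ± 0.05.

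All 5 ATG8 genes had lower estimates in CR oocytes, and 2 of them passed the test. Gabarap fell by 0.44 ± 0.15 (adjusted p = 0.0220 by edgeR), from a median of 10.4 to 7.70 CPM, and Map1lc3a by 0.35 ± 0.11 (adjusted p = 0.0113 by edgeR), from 20.3 to 17.1 CPM. Map1lc3b, Gabarapl1 and Gabarapl2 had changes of -0.16 ± 0.10, -0.67 ± 0.42 and -0.23 ± 0.10 that did not pass it. For both genes called the mouse means overlapped, as Map1lc3a ranged from 12.9 to 28.1 CPM over the Middle mice and from 16.03 to 17.9 CPM over the CR mice. Of the conjugation genes, Atg3 rose by 0.43 ± 0.13 (adjusted p = 0.00767 by edgeR) and Atg4a by 0.47 ± 0.18 (adjusted p = 0.0380 by edgeR), the latter from a median of 2.72 to 4.27 CPM, and the other 8 did not pass the test. Atg5, the most abundant, had a change of 0.05 ± 0.06. Tfe3 fell by 0.22 ± 0.08 (adjusted p = 0.0292 by edgeR), with 179 to 264 CPM over the Middle mice and 185 to 207 over the CR mice. Sqstm1 (-0.15 ± 0.09), Nbr1 (0.02 ± 0.07), Lamp1 (0.01 ± 0.05) and Lamp2 (0.19 ± 0.12) did not pass the test.

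Leaving out each of the 7 mouse labels in turn, 6 of the 13 genes were called each time: Optn, Pik3c3, Uvrag, Atg2a, Atg9a and Atg13. Atg4a was not called without CR mouse 3 or Middle mouse 1, 3 or 4, Atg3 without CR mouse 3 or Middle mouse 1, Atg101 without CR mouse 3 or Middle mouse 4, and Gabarap without CR mouse 3 or Middle mouse 2 or 4. Map1lc3a and Tfe3 were not called without CR mouse 2 or Middle mouse 1 or 4, nor Atg14 without CR mouse 2 or Middle mouse 2 or 4. Over the mouse means of log2(CPM + 1), a two-sided exact permutation test gave p = 0.0286, unadjusted and the smallest that 3 against 4 labels allow, for Optn, Pik3c3, Uvrag, Atg13 and Atg14, and p = 0.0571 for Atg9a. The mouse means of these 6 of 37 genes did not overlap between the groups (16.2%), beside 23.8% of all genes tested. The adjusted p by edgeR with counts summed per mouse was 0.0651 for Atg13, 0.102 for Uvrag, 0.220 for Atg3, 0.264 for Atg4a, 0.283 for Atg14, 0.324 for Gabarap, 0.325 for Atg101, 0.446 for Map1lc3a and 0.585 for Tfe3. Without TMM, 4 of the genes called were higher and 9 lower in CR, and the share of all genes called that were higher went from 52.6% to 45.7%. Of the 13 genes 11 were called there, Atg101 and Atg4a were not, and Atg4b and Gabarapl2 were called in their place. Thinning every library to 1903373 counts, so that the depth was equal, left 11 calls, 4 higher and 7 lower, without Atg3 and Atg4a. DESeq2 did not call Atg4a either. In the oocytes compared, 3 CR and 2 Middle libraries had summed cumulus markers of at least 1000 CPM, and without them 13 genes were called, 7 higher and 6 lower, beside 32% of all genes. Of these, 10 were among the 13 above, while Atg4a, Map1lc3a and Tfe3 were not called and Atg16l1, Gabarapl2 and Pik3r4 were. The labels give no batch for the first set, so a batch that all CR libraries share and the diet cannot be told apart.

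**Figure D2:**
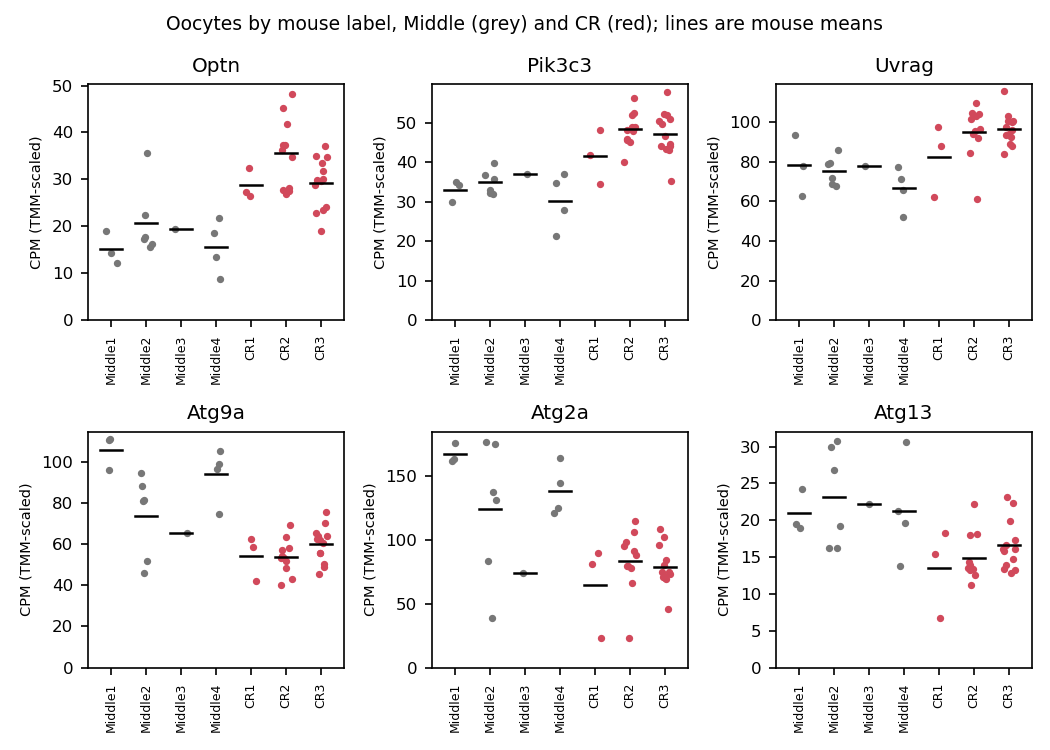
CPM with TMM scaling (y axes, from 0) in each oocyte library of the 4 Middle mice (grey) and 3 CR mice (red), with the mean of each mouse as a line, for the 6 genes called without each mouse label in turn. Optn, Pik3c3 and Uvrag are higher in each CR mouse than in each Middle mouse, Atg9a and Atg13 lower, and Atg2a overlaps through Middle mouse 3.

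In cumulus cells 1 of 38 genes changed (2.63%), beside 3.60% of all 24657 genes tested. This was Tfe3, which rose by 0.54 ± 0.16 on the log2 scale (adjusted p = 0.0429 by edgeR) from a median of 17.1 CPM (7.44 to 28.7, n = 15) in Middle to 22.8 CPM (13.7 to 47.0, n = 25) in CR. Mouse means overlapped, at 21.6, 13.2, 24.7 and 15.6 CPM in Middle and 21.6, 25.5 and 24.6 CPM in CR, and the adjusted p by edgeR was 0.642 with counts summed per mouse. Tfe3 was not called without CR mouse 2 or 3 or without Middle mouse 2 or 4, where its adjusted p by edgeR reached 0.382. Nor was it called with every library thinned to 847916 counts. Lamp1 lay just outside the threshold, at 0.28 ± 0.09 with an adjusted p of 0.0513 by edgeR, and its mouse means were 85.6, 97.7, 78.6 and 116 CPM in Middle and 130, 117 and 118 CPM in CR. They did not overlap, which held for 1 of the 38 genes (2.63%) beside 9.90% of all genes tested, and the adjusted p by edgeR with counts summed per mouse was 0.570. The ATG8 genes Map1lc3a, Map1lc3b, Gabarap, Gabarapl1 and Gabarapl2 had changes of -0.08 ± 0.19, 0.11 ± 0.12, 0.01 ± 0.09, -0.21 ± 0.22 and 0.11 ± 0.14, none of which passed the test. Nor did Sqstm1 (0.05 ± 0.11), Lamp2 (-0.09 ± 0.09) or Tfeb, with 59 counts over 25 CR and 9 over 15 Middle libraries. The median change of the 38 genes was -0.08, beside 0.04 over all genes, and the 95% intervals of 28 of them lay within 0.5 of 0.

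**Figure D3:**
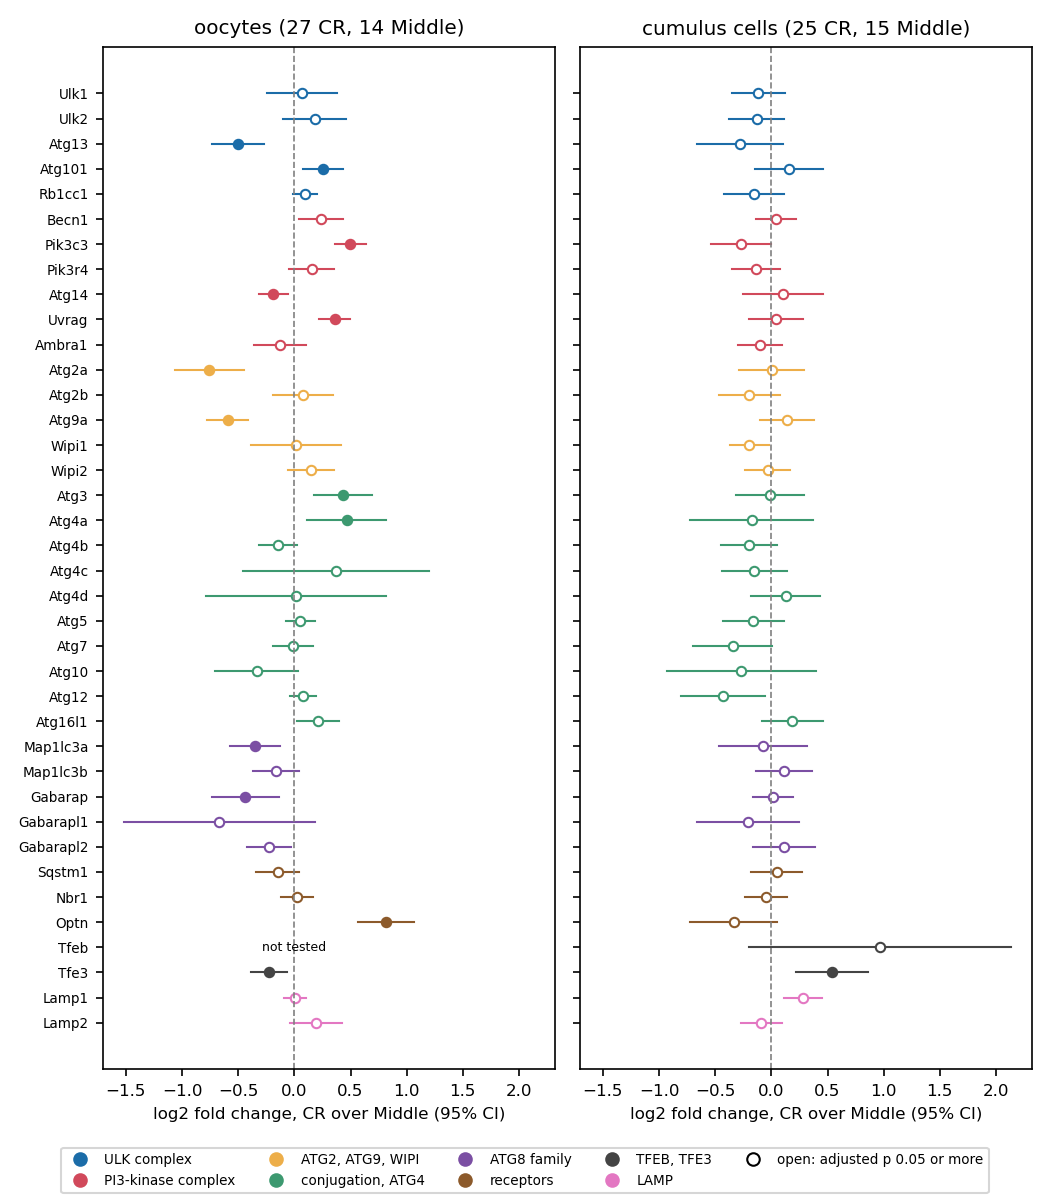
Log2 fold change of CR over Middle with its 95% confidence interval (x axis) for 37 genes in oocytes (left, where Tfeb was not tested) and 38 in cumulus cells (right), coloured by role, filled where the adjusted p was below 0.05. In oocytes 13 genes are filled, on both sides of 0, and in cumulus cells Tfe3 alone.

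The difference between these responses was tested in 1 model over both cell types. For 7 of 38 genes (18.4%) the response of oocytes differed from that of cumulus cells, beside 12.7% of all 30659 genes tested. Optn and Pik3c3 responded more upward in oocytes, by 1.06 ± 0.23 (adjusted p = 0.000554 by edgeR) and 0.68 ± 0.15 (adjusted p = 0.000629 by edgeR) on the log2 scale. Tfe3 (-0.86 ± 0.17), Atg2a (-0.86 ± 0.22), Atg9a (-0.83 ± 0.15), Gabarap (-0.54 ± 0.17) and Lamp1 (-0.37 ± 0.10) responded more downward in oocytes. Tfe3 was thus the gene that was called in opposite directions in the cell types, though neither call passed with counts summed per mouse. The call in cumulus cells was also lost with libraries thinned to 1 depth. With the complex as a replicate block, which pairs each oocyte with its own cumulus cells, 6 of the 7 passed and Gabarap did not. Of all genes called, 33.8% responded more upward in oocytes and the median difference of all genes was -0.13, beside -0.01 for the 38 genes. With counts summed per mouse no gene passed, 4 had an unadjusted p under 0.05, and 30 of all genes tested were called, 93.3% of them more upward in oocytes. The median difference of all genes then moved to 0.20 and that of the 38 genes to 0.37, while the difference of Lamp1 was -0.10.

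Other genes of autophagy and the lysosome in CR oocytes, from lists also drawn up with earlier results known, were called at shares of 27.3% (3 of 11 further genes of the machinery), 29.4% (5 of 17 further receptors), 35.7% (5 of 14 genes of fusion), 16% (4 of 25 lysosomal genes) and 27.8% (5 of 18 upstream regulators), beside 30.0% of all genes. The calls were 3 higher in CR and 0 lower for the machinery, 2 and 3 for receptors, 4 and 1 for fusion, 3 and 1 for the lysosome and 3 and 2 for regulators. Among the largest called changes were those of Vps33a, a subunit of the complex that tethers membranes for fusion (0.997 ± 0.161 on the log2 scale), and of the regulators Mitf, a relative of TFEB (0.77 ± 0.10), and Fnip1 (0.74 ± 0.06) and Flcn (-0.59 ± 0.07), whose products form the folliculin complex that controls TFEB and TFE3 through Rag GTPases. Vps33a had means of 17.3 CPM in CR and 8.68 in Middle, and its adjusted p by edgeR with counts summed per mouse was 0.00442. Fnip1 had means of 176 CPM in CR and 105 in Middle oocytes, Flcn of 78.8 and 119 CPM, and Mitf of 34.98 and 20.5 CPM, and the adjusted p by edgeR with counts summed per mouse was 0.00408, 0.00983 and 0.00611. Among receptors Tax1bp1 rose by 0.58 ± 0.05 (means 362 and 243 CPM), while Stbd1, a receptor for glycogen, and Fkbp8, a receptor of mitochondria, fell by 0.55 ± 0.08 and 0.45 ± 0.13. The adjusted p by edgeR with counts summed per mouse was 0.00762 for Tax1bp1, 0.0592 for Stbd1 and 0.332 for Fkbp8. Of the machinery, Nrbf2, a further subunit of the VPS34 complex, rose by 0.56 ± 0.10, and of the lysosome, the proton pump subunits Atp6v1h and Atp6v1a rose by 0.63 ± 0.10 and 0.35 ± 0.08 and the protease gene Ctsd by 0.54 ± 0.15. Of these 4, Atp6v1h passed with counts summed per mouse (adjusted p = 0.0169 by edgeR), while Nrbf2, Atp6v1a and Ctsd had adjusted p values of 0.142, 0.162 and 0.222. In CR cumulus cells, 1 of 25 lysosomal genes (4%) and 1 of 17 upstream regulators (5.88%) were called by edgeR, beside 3.60% of all genes. Of the machinery, receptors and genes of fusion none was called by edgeR or DESeq2, with 0, 2 and 2 at an unadjusted p under 0.05. The lysosomal enzyme gene Gusb rose by 0.42 ± 0.11, with an adjusted p by edgeR of 0.502 with counts summed per mouse. Fnip1 was called in the opposite direction to that in oocytes, at -0.84 ± 0.19, with means of 56.0 CPM in CR and 100.4 in Middle, though its adjusted p by edgeR with counts summed per mouse was 0.533.

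Age was compared next, in both sets. In oocytes of the first set, none of the 37 genes tested differed between Middle and Young by edgeR, with 4 at an unadjusted p under 0.05 and none by DESeq2, and none of all 22958 genes was called (0%). Between Old and Young, 1 of 37 genes was called by edgeR, beside 7.39% of all 23100 genes. This was Ulk1, the kinase that starts autophagy, which ranged from 17.8 to 141 CPM in Young oocytes (median 100.5) and from 10.2 to 110 CPM in Old oocytes (median 48.9). It fell by 0.86 ± 0.25 on the log2 scale (adjusted p = 0.0375 by edgeR). The mice were at 111 and 88.0 CPM in Young and 42.7 and 71.5 CPM in Old, and an exact permutation test over 2 against 2 labels cannot give a p under 0.333. Ulk1 was not called without Old label 1_2 (-0.40), Young mouse 1 (-0.77) or Young mouse 2 (-1.13), nor with the summed level of cumulus markers as a covariate (-0.57) or with counts summed per mouse (-0.85, adjusted p = 0.553 by edgeR). Without Old mouse 3, which left 1 Old label, 9 genes were called, 8 lower and 1 higher, beside 18.4% of all genes. Ulk1 was at -1.13 there. Summed cumulus markers had medians of 622 CPM in Old and 300.1 CPM in Young oocytes, and without 3 Old libraries and 1 Young library of at least 1000 CPM of these markers Ulk1 was called (-0.79) along with Becn1 (-0.41) and Map1lc3a (-0.57). Of all genes called, 59.5% were higher in Old oocytes and 71.1% without TMM, but 42.8% of 1756 without the libraries of high cumulus markers and 41.4% of 29 with the covariate. DESeq2 called 6 genes here, Atg5 higher and Ulk1, Atg2a, Atg4b, Atg16l1 and Map1lc3a lower, beside 11.9% of all genes.

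Cumulus cells of Old mice differed from those of Young mice at 8 of 38 genes (21.1%), beside 3.96% of all 23091 genes tested, and 7 of the 8 were lower in Old. Of all genes called, 44.6% were higher in Old, and 56.4% without TMM, where again 7 of the 8 autophagy genes called were lower. Sqstm1 ranged from 299.9 to 447 CPM in Young cumulus cells (median 367) and from 158.0 to 321 CPM in Old (median 247), and fell by 0.64 ± 0.09 on the log2 scale (adjusted p = 1.62e-05 by edgeR). The mice were at 399 and 368 CPM in Young and 234 and 253 CPM in Old. Of the ATG8 family, Gabarapl1 fell by 0.80 ± 0.16 (adjusted p = 0.00270 by edgeR), from a median of 68.2 to 37.6 CPM, and Map1lc3b by 0.45 ± 0.11 (adjusted p = 0.0115 by edgeR), from 72.9 to 52.9 CPM. Lamp2 fell by 0.36 ± 0.07, Atg12 by 0.67 ± 0.16, Atg101 by 0.57 ± 0.14 and Tfe3 by 0.49 ± 0.13, with adjusted p values by edgeR of 0.00275, 0.0102, 0.0104 and 0.0327. Pik3c3 alone was higher, by 0.42 ± 0.12 (adjusted p = 0.0468 by edgeR). The mouse means of the groups did not overlap for 22 of the 38 genes (57.9%), the 8 called among them, beside 42.3% of all genes tested and 96.8% of all genes called, with 2 labels in each group. With counts summed per mouse none passed, the lowest adjusted p by edgeR being 0.0564 for Sqstm1 and 0.0629 for Gabarapl1 and those of the other 6 lying between 0.236 and 0.523, with 8 genes at an unadjusted p under 0.05 and 81 of all genes called. None of the 38 was called by edgeR without Young mouse 2, which gave 12 of the 15 Young libraries, and calls over all genes fell there to 41, or 0.191%. Tfe3 was also not called without Young mouse 1, without Old label 1_2 or without Old mouse 3, Pik3c3 without either Old label or without the filter on low counts, Atg101 and Map1lc3b without Old label 1_2, and Atg12 without Old mouse 3.

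Middle cumulus cells, which were compared with the same Young libraries, were lower at Atg101 (-0.73 ± 0.16, adjusted p = 0.0141 by edgeR) and at Sqstm1 (-0.48 ± 0.12, adjusted p = 0.0376 by edgeR), 2 of 38 genes beside 1.46% of all 22660, of which 44.7% were higher in Middle and 55.5% without TMM. Sqstm1 was at 399.7 CPM in Middle mouse 1 and at 212, 241 and 228 CPM in the other Middle mice, beside 395 and 370 CPM in Young mice. Without Middle mouse 1 it fell by 0.77 and 6 genes were called, with Gabarapl1 (-1.11), Atg12 (-0.91), Tfe3 (-0.72) and Lamp2 (-0.26) among them, beside 5.15% of all genes. DESeq2 and the fit without TMM also called Atg4c, higher in Middle by 0.54 and 0.55. No gene was called without Middle mouse 2, without Middle mouse 4 or without Young mouse 2, and Sqstm1 was not called without Young mouse 1. For both genes the adjusted p by edgeR with counts summed per mouse was 0.9999.

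The second set offers the same ages in other mice. Of the 8 genes called in Old cumulus cells, 5 had the same sign at 14mo against 2mo, a share that was not calculated over all genes. Of the 8, 1 was called at 14mo, Map1lc3b. It was the sole call of 38 genes by edgeR (beside 1.70% of all 22862). DESeq2 also called Atg3, higher by 0.68, as did edgeR without 14mo mouse 38 or 39 or 2mo mouse 35. Map1lc3b fell by 0.41 ± 0.11 on the log2 scale (adjusted p = 0.0407 by edgeR) from a median of 80.4 CPM (46.5 to 128, n = 24) to 62.2 CPM (45.6 to 84.8, n = 16). The mice of the groups did not overlap, at 78.7, 87.1, 88.7, 79.7 and 78.5 CPM at 2mo and 63.4, 69.0, 61.4, 63.4 and 59.2 CPM at 14mo (two-sided exact permutation test over 10 labels, p = 0.00794, unadjusted and the smallest they allow). Mouse means did not overlap for 1 of the 38 genes (2.63%), beside 1.60% of all genes tested and 37.9% of all genes called. With counts summed per mouse the adjusted p of Map1lc3b by edgeR was 0.239. The counts of Map1lc3b are uncertain in both sets, since 98.6% of nonzero values in the first and 98.8% in the second were not whole. Map1lc3b also shares exon sequence with Zcchc14 on the opposite strand. With 1 mouse left out, its change stayed between -0.43 and -0.37, and it was not called without 14mo mouse 37, 39, 40 or 41 or 2mo mouse 2 or 34, where the adjusted p by edgeR was 0.0625 to 0.135. Sqstm1 was lower by 0.21 ± 0.09 at 14mo and did not pass the test (adjusted p = 0.222 by edgeR), with a 95% interval from -0.39 to -0.04 that does not reach the -0.64 estimated in the first set. The intervals of Atg101 (-0.27 to 0.29), Atg12 (-0.40 to 0.29), Tfe3 (-0.35 to 0.33), Lamp2 (-0.08 to 0.26) and Gabarapl1 (-0.64 to 0.21) at 14mo likewise did not reach the estimates of the first set. Pik3c3, the gene that was higher in Old, had an estimate of -0.30 ± 0.16 at 14mo. These estimates have errors of their own, which this comparison leaves out, and the genes were picked because they were called there. The intervals also treat libraries of 1 mouse as independent. The difference between the sets was itself not tested, so no disagreement between them is read from these intervals.

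**Figure D4:**
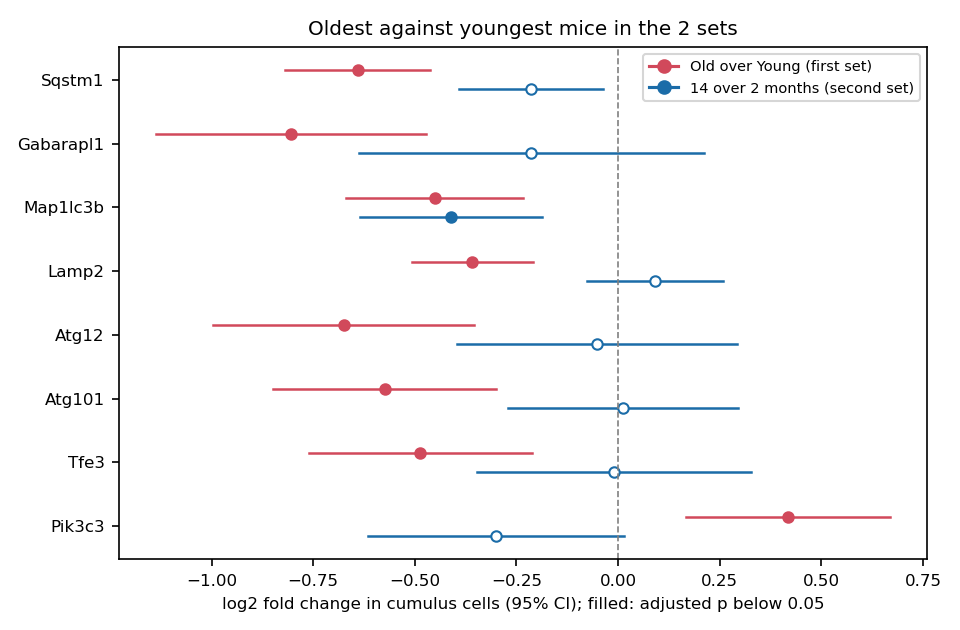
Log2 fold change in cumulus cells with its 95% confidence interval (x axis) for the 8 genes called between Old and Young mice of the first set (red) and the same genes between 14 and 2 months in the second set (blue), filled where the adjusted p was below 0.05. Map1lc3b is filled in both sets, and Atg101, Atg12, Tfe3 and Lamp2 lie near 0 in the second.

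At the other ages of the second set no gene was called by edgeR or DESeq2. Of all genes, edgeR called 0.0126% of 23737 in 4mo oocytes, 0.519% of 24847 in 4mo cumulus cells, 0.160% of 22514 in 9mo oocytes and 1.92% of 23024 in 9mo cumulus cells, each against 2mo (of the last, 78.9% were higher at 9mo, and 57.2% without TMM). The autophagy genes at an unadjusted p under 0.05 numbered 4 of 38, 6 of 38, 6 of 37 and 5 of 38 in these comparisons. In 14mo oocytes none of 37 was called by edgeR (beside 1.14% of all 22659), 3 had an unadjusted p under 0.05, and DESeq2 called Lamp1, higher by 0.14. In oocytes the intervals were narrower than in the first set: at 14mo the 95% intervals of 32 of 37 genes lay within 0.5 of 0 on the log2 scale, beside 11 of 37 between Old and Young. In cumulus cells the 2 measures went opposite ways. The median SE was 0.129 at 14mo and 0.117 between Old and Young, while 26 and 23 of 38 intervals lay within 0.5 of 0. Optn, Pik3c3, Atg2a and Atg9a, which changed in CR oocytes, had median levels in second-set oocytes of 6.15 to 6.70, 7.59 to 8.27, 17.6 to 18.2 and 12.8 to 13.4 RPKM over the 5 groups.

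Hyperovulation was tested by the 2moNoH mice, which had not been injected. In oocytes none of 37 genes was called by edgeR or by DESeq2 (2 at an unadjusted p under 0.05), beside 0.0299% of all 23373 genes, and 33 of the 37 intervals lay within 0.5 of 0. In cumulus cells 3 of 38 genes changed (7.89%), beside 13.2% of all 24161, all higher without hyperovulation. Atg3, whose product transfers ATG8 proteins to lipid, ranged from 2.71 to 17.8 CPM in 2mo (median 8.65) and from 7.30 to 36.96 CPM in 2moNoH (median 14.2), and was 1.77-fold higher (log2 0.82 ± 0.15, adjusted p = 0.000133 by edgeR). Its mouse means were 9.69, 7.23, 8.47, 12.3 and 10.3 CPM in 2mo, and ranged from 12.3 to 21.6 CPM over the 8 mice of 2moNoH (two-sided exact permutation test, p = 0.00155, unadjusted). The groups did not overlap, which held for 1 of the 38 genes (2.63%), beside 1.35% of all genes tested. With counts summed per mouse the adjusted p of Atg3 by edgeR was 0.0582. Atg13 (0.43 ± 0.13) and Rb1cc1 (0.35 ± 0.10), both of the ULK1 complex, had adjusted p values of 0.0154 and 0.0150 by edgeR and mouse means that overlapped between groups. Their adjusted p by edgeR with counts summed per mouse was 0.407 and 0.525. Atg3 was called when each of the 5 mice of 2mo was left out in turn, and the sole gene called without 2mo mouse 34. Atg13 was also not called without 2mo mouse 36, nor Rb1cc1 without 2mo mouse 1. Atg3 was also at a median of 4.54, 4.04 and 4.45 RPKM in cumulus cells of the hyperovulated 4mo, 9mo and 14mo mice, near the 4.59 of 2moNoH and above the 2.84 of 2mo. Summed cumulus markers were lower in 2moNoH, with a median of 6630 CPM beside 9010 CPM, and their part in these changes was not tested. The response differed between the cell types at none of 38 genes by edgeR, with 9 at an unadjusted p under 0.05, beside 4.05% of all 30006 genes called.

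**Figure D5:**
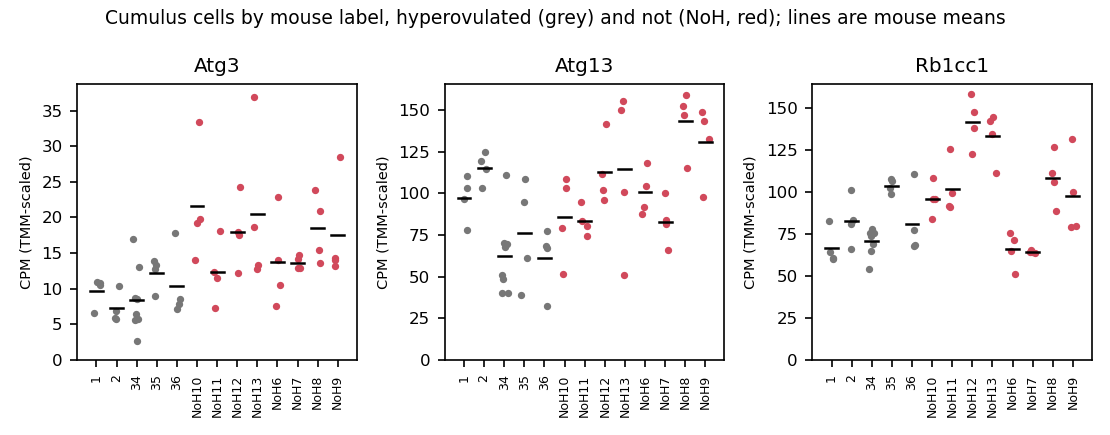
CPM with TMM scaling (y axes, from 0) in each cumulus library of the 5 hyperovulated 2mo mice (grey) and the 8 2moNoH mice (red), with the mean of each mouse as a line, for the 3 genes called. The mice of 2moNoH lie at 12.3 to 21.6 CPM for Atg3, and the groups overlap for Atg13 and Rb1cc1.

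Of the further lists in these cumulus cells, 5 of 25 lysosomal genes (20%), 5 of 17 receptors (29.4%), 3 of 14 genes of fusion (21.4%), 2 of 17 upstream regulators (11.8%) and 1 of 11 machinery genes (9.09%) were called, beside 13.2% of all genes. Over the comparisons of diet, age and hyperovulation, 20 of the 38 genes were called in at least 1 and 18 in none, beside 37.1% of all 31915 genes tested in at least 1 of them.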

How the data were processed

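The authors trimmed reads, mapped them to GRCm38 with Hisat2 2.0.5 and assigned them to genes of GENCODE vM15 by featureCounts 1.5.1, multi-mapped reads included. The deposited count values were not all whole (36.8% of nonzero values in the first set were not), so the unit was taken to be expected counts, rounded here, and the authors also deposited RPKM values calculated from counts. Deposited RPKM of CR libraries did not match the deposited counts (0.762% of values within 0.1%), whereas those of ad libitum libraries did (100% in each set). RPKM was therefore recalculated from counts. Whether the CR counts were made in another way than the Middle counts was not tested. Gene symbols and coordinates were taken from GENCODE vM21 (GRCm38). Totals ranged from 559305 to 4536690 counts per oocyte library and from 510029 to 2501005 per cumulus library. No pair of libraries of a group agreed within sampling noise (chi-square of counts).

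Libraries were compared in R 4.3.3 with edgeR 4.0.16 (TMM, quasi-likelihood F test, genes detected in 5 or more libraries, false discovery rate 5%). CPM uses TMM-scaled totals, except for marker sums and Tfeb, which use library totals. ± is the SE, and the SD for shares and sums of ATG8 genes. In simulated data, 196 of 200 genes changed 2-fold were recovered beside 34 false calls (14.8% of calls) for the CR and Middle oocyte groups (24642 genes), and 193 beside 11 (5.39%) for Old and Young cumulus cells (22431 genes). Both false shares were above the 5% set. The simulated libraries were drawn independently, without a mouse effect, and the genes changed were few and well counted. The simulation therefore cannot say how many calls over libraries come from differences between mice, nor how smaller changes are recovered. Alternatives were DESeq2 1.42.0, no TMM, no filter, sums per mouse, each mouse label left out in groups of at most 5 labels, thinned depth, covariates and a replicate block. Labels tie each oocyte to the cumulus cells of its complex, which pairs them, though their deviations from group means correlated weakly (median r = 0.0259 over 24 complexes of 2mo). The members, lists, tests and rules were chosen with earlier results of these data known. Named were genes called (at most 12 per comparison, by size), in CR also the ATG8 genes, Sqstm1, Tfeb, Tfe3, Lamp1 and Lamp2, and at most the 3 largest called changes of each further list. Other genes were named after their values were seen.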

Additional observations from a re-analysis of the deposited data

Results flagged for a closer look

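For 7 genes the response to CR differed between oocytes and cumulus cells by the test of that difference (oocytes minus cumulus cells, log2 scale): Optn by 1.06, Pik3c3 by 0.68, Tfe3 by -0.86, Atg2a by -0.86, Atg9a by -0.83, Gabarap by -0.54 and Lamp1 by -0.37. Over mouse means of the genes called, 3 values, each of a single gene, stood apart from the other mice of their group by Dixon's criterion. Chance alone meets it in about 5% of groups. It was checked for every gene called, in each group with enough mouse labels, and at 2mo alone for 35 genes in both cell types. So few hits are therefore no sign of more than chance. Middle mouse 1 was at 399.7 CPM of Sqstm1 in cumulus cells, with the other Middle mice at 211.7 to 241. Mouse 34 of 2mo was at 94.2 CPM of Atg9a in oocytes, with the others at 79.4 to 83.3 CPM. Mouse 36 of 2mo was at 20.4 CPM of Gabarapl2 in oocytes, with the others at 15.3 to 16.2 CPM.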

How the results depend on the processing

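The number of genes called in CR oocytes was 13 without TMM, without the filter, by DESeq2 and with the cumulus marker covariate, 14 with all deposited libraries (where Atg14 and Tfe3 were not called), 11 at equal depth and 13 without libraries of high cumulus markers (added after seeing the data), but 2 with counts summed per mouse. Sums per mouse also gave 0 calls in CR, Middle, Old, 14mo and 2moNoH cumulus cells (1, 2, 8, 1 and 3 in the report), 0 in Old oocytes (1) and 0 for the difference between cell types under CR (7). In CR cumulus cells 2 genes were called with all deposited libraries and 0 at equal depth. In Old oocytes 2 were called without TMM, 6 by DESeq2, 0 with the covariate and 3 without libraries of high cumulus markers. DESeq2 called 1 gene in 14mo oocytes and 2 in 14mo cumulus cells, the covariate gave 1 in 14mo oocytes, and the name prefix of complexes as a covariate gave 5 in 2moNoH cumulus cells. The cause was not tested. With each mouse label of groups of at most 5 labels left out in turn (no 4mo or 2moNoH label was), calls ranged from 9 to 15 in CR oocytes, 0 to 2 in CR cumulus cells, 0 to 6 in Middle cumulus cells, 0 to 9 in Old oocytes, 0 to 8 in Old cumulus cells, 0 to 1 in 9mo cumulus cells and in 14mo oocytes, 0 to 2 in 14mo cumulus cells, 1 to 5 in 2moNoH cumulus cells and 34 to 35 between cell types. The share of all genes called moved too, from 24.4% to 30.4% in CR oocytes and from 0% to 18.4% in Old oocytes. In cumulus cells it ranged from 1.26% to 5.53% in CR, 0.0483% to 5.15% in Middle and 0.191% to 3.01% in Old. In the second set it ranged from 0.704% to 3.29% in 9mo, 0.951% to 1.96% in 14mo and 6.41% to 13.8% in 2moNoH cumulus cells. It was 0.381% to 1.83% in 14mo oocytes and 86.5% to 87.7% between cell types. The replicate block gave 35 calls between cell types, 6 for the difference under CR and 0 for that of hyperovulation. Gabarapl2 between cell types was 0.0898 on the log2 scale without TMM. Over all genes, sums per mouse gave 2151 calls in CR oocytes (7583 in the report), 0 in CR cumulus cells (887), 0 in Middle cumulus cells (331), 0 in Old oocytes (1707), 81 in Old cumulus cells (914), 230 in 2moNoH cumulus cells (3181) and 30 for the difference under CR (3902), and in Old oocytes DESeq2 gave 2745 and the covariate 29.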
